A study of Mus musculus with 18 samples.

Results

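Chromosome 4 was the mouse chromosome whose share of open-chromatin counts varied most among 9 murine peripheral T-cell lymphomas (mPTCL), and it is described here through the 4290 peaks that the deposited table of 61224 peaks places on it. Those peaks were 7.01% of all peaks. The chromosome was selected on its shares of counts in these libraries, so the shares and their profile along the chromosome are given as a description without a test. ATAC-seq, in which the Tn5 transposase cuts and tags open DNA, had been carried out on 18 libraries of 10000 sorted cells each, per the labels' protocols. Per the labels, mPTCL arose after p53KO T cells were transferred into CD3KO recipients of the C57BL/6 strain, and the lymphoma cells were sorted from the liver, with no sort marker named. The reference libraries were wild type (WT) C57BL/6, 3 for each cell type. Splenic CD3+ Thy1+ sorts gave the T libraries. For NKT cells, liver was sorted with CD3 and a CD1d tetramer (alpha Gal Cer), and Sp in their titles is at odds with that tissue. NK cells were CD27- CD11b+ spleen cells. Lymphomas differ from every normal group in genotype, transformation and sort gate at once, and from T and NK cells in tissue too, so these cannot be told apart. The labels give no ages, and separate animals are not stated for the normal libraries, so the spread behind each p-value is that between libraries and may be technical.

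Chromosome 4 carries several genes with established parts in T cells and in tumours. Cdkn2a encodes 2 unrelated inhibitors of growth from separate starts: p16Ink4a, which blocks the kinases that open the cell cycle, and p19Arf, which stabilises p53 by binding its ubiquitin ligase. Lck, the kinase that starts signalling from the T-cell receptor, Jun, a subunit of the AP-1 transcription factor, Tox, a transcription factor of thymocytes and of chronically stimulated T cells, and Runx3, a transcription factor of cytotoxic lymphocytes, lie on the same chromosome. In sorted bulk cells, a count at a site does not tell apart how many cells have it open, how open it is in each cell and how many copies of the chromosome a cell holds.

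Depth in peaks ran from 670358 counts (mPTCL 8) to 4844441 (mPTCL 7) among lymphomas. T libraries had 979441 to 2358023 counts, NKT libraries 1433904 to 9097014 and NK libraries 417107 to 596601. Of the 4290 peaks, between 0 and 449 had no count in a lymphoma, and between 24 and 991 had none in a normal library, with the NK libraries and NKT 1 the sparsest. By the deposited classes, 1324 peaks of chromosome 4 were promoter peaks (30.9%, against 32.8% on the other autosomes), 1302 were intronic and 732 intergenic. The summed level of 6 T-cell marker genes was 348 to 595 CPM (counts scaled to library size) in the lymphomas, against 582 to 707 in T cells, 760 to 833 in NKT cells and 355 to 463 in NK cells. Hepatocyte markers had a peak at only 1 of 4 genes, G6pc, with 14.9 to 71.9 CPM in the lymphomas, against 3.06 to 8.06 in T cells, 2.79 to 6.05 in NKT cells and 9.34 to 50.3 in NK cells. Alb, Apoa1 and Ttr had no peak. Myeloid markers with a peak (2 of 5 genes; Csf1r, Lyz2 and Adgre1 had none) summed to 24.0 to 65.5 CPM in the lymphomas, against 8.17 to 14 in T cells, 6.28 to 8.34 in NKT cells and 16.8 to 43.2 in NK cells. The part of these markers in the results below was not tested.

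The sequences shown here are those of the promoters of 3 genes on which the gene-level results turn, from RefSeq (build GRCm38.p6, which is the mm10 assembly of the files). Each runs from 250 bases before to 50 bases after an annotated start and is written 5′ to 3′ on the strand of the gene. Capitals mark matches, on either strand, to GGGCGG, the core of the SP/KLF motif, or to CCGGAA, the core of the ETS motif. The first of these was in 35.6% of all 32817 promoters of the table and the second in 14.9%. The Tle1 promoter (chr4:72200844-72201143, minus strand) lay wholly within the peak that was closed in the lymphomas and held 40 CpG dinucleotides, against a median of 7 over all promoters. The Klhl32 promoter (chr4:24851075-24851374, minus strand) overlapped the peak that was open in the lymphomas by 152 bases. Both annotated starts of Cdkn2a are shown because they differed in how evenly they were open: the upstream one (chr4:89294570-89294869, minus strand, the p19Arf start) with 45 CpG and the downstream one (chr4:89282143-89282442, minus strand, the p16Ink4a start) with 12 CpG, each wholly within a peak. The match to these letters is a description and not a binding site.
Tle1: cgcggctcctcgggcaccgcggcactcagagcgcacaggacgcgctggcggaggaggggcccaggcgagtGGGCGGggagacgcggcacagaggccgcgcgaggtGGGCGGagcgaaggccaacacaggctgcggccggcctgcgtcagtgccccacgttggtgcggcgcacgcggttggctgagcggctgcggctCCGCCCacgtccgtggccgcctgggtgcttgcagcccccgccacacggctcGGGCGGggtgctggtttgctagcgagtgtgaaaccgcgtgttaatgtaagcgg
Klhl32: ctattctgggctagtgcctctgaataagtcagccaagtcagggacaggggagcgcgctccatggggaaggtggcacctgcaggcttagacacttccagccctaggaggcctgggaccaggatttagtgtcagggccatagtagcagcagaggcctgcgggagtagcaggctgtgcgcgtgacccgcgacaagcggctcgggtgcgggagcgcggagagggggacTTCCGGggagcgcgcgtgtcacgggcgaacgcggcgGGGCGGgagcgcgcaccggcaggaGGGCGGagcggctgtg
Cdkn2a upstream: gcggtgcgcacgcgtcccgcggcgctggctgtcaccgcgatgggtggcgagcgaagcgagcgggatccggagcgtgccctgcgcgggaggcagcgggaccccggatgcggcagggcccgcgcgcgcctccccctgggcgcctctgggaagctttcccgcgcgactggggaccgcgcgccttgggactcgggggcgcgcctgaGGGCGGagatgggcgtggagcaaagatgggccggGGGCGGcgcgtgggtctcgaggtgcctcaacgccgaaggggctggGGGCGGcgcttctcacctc
Cdkn2a downstream: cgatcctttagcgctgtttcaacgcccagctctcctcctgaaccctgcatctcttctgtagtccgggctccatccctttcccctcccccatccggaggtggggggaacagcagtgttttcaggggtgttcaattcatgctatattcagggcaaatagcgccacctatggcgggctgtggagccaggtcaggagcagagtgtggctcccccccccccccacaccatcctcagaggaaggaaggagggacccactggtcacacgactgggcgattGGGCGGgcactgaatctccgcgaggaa

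Of all counts in peaks, chromosome 4 held 6.53%, 5.53%, 5.30%, 6.67%, 8.28%, 9.69%, 6.01%, 6.16% and 7.89% in mPTCL 1 to 9. The 9 normal libraries held 6.56%, 6.48% and 6.30% in T, 6.43%, 6.39% and 6.38% in NKT, and 6.45%, 6.88% and 6.65% in NK cells. mPTCL 5, 6 and 9 lay above every normal library, at 1.27, 1.49 and 1.21 times the normal mean. mPTCL 2, 3, 7 and 8 lay below every normal library, at 0.8502, 0.815, 0.925 and 0.947 times that mean, and mPTCL 1 and 4 lay within the normal range. The nearest values on either side of the lower edge were 6.16% in mPTCL 8 and 6.30% in T 3. Their 95% Wilson intervals (6.10% to 6.22% and 6.27% to 6.34%) cover counting error only. Libraries of a group differed by more than that, so nothing on this gap is read from the intervals. The lymphomas averaged 6.895% ± 1.441 (SD, n = 9), against 6.503% ± 0.175 in the normal libraries (SD, n = 9). The mean therefore hid a spread in both directions.

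**Figure D1:**
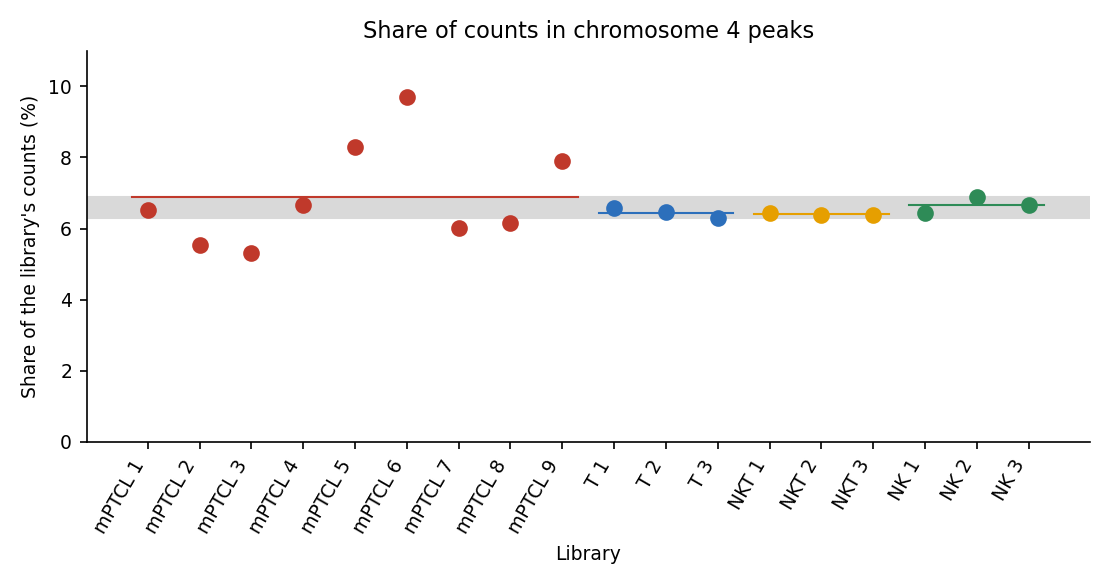
Share of each library's counts that lay in chromosome 4 peaks (vertical axis, percent, from 0), by library (horizontal axis); points are libraries, coloured lines are group means and the grey band is the range of the 9 normal libraries. mPTCL 5, 6 and 9 lie above the band at 8.28%, 9.69% and 7.89%, and mPTCL 2, 3, 7 and 8 lie below it.

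Among the 19 autosomes, the SD of the log2 share over the 9 lymphomas was 0.288 for chromosome 4, 0.261 for chromosome 13 and 0.116 for chromosome 2, which varied least. A share is relative to the rest of the library, and chromosomes 5, 11 and 15 were above every normal library in all 9 lymphomas. The median chromosome of a lymphoma lay at -0.34 to -0.01 log2 units from its normal mean. Set against the median chromosome of the same library, chromosome 4 was 0.21, 0.10, -0.02, 0.08, 0.48, 0.80, 0.13, 0.12 and 0.29 log2 units from the normal mean in mPTCL 1 to 9. On that scale mPTCL 5, 6 and 9 stayed above every normal library, mPTCL 1, 2, 7 and 8 were above as well, and mPTCL 3 and 4 were within the range. The high shares of mPTCL 5, 6 and 9 therefore held on both scales, while none of the 4 low shares stayed below the normal libraries.

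The raised shares did not belong to 1 kind of site. In promoter peaks the share was 7.89%, 9.19% and 7.47% in mPTCL 5, 6 and 9, against 6.19% to 6.48% in the normal libraries. Intergenic peaks gave 9.65%, 11.3% and 9.08%, against 6.57% to 7.72%. In each of the 7 deposited classes, these 3 lymphomas lay above all 9 normal libraries. For mPTCL 6, leaving out the 1% of peaks with the highest mean count gave 0.576 log2 units over the normal mean, and all peaks gave 0.575.

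Along the chromosome, 28 of 32 bins of 5 Mb held at least 10 peaks, and the level of a bin was taken as its share of the library over the normal mean, in log2. mPTCL 6 lay above every normal library in 17 of 28 bins and below in 3, mPTCL 5 above in 14 and below in 3, and mPTCL 9 above in 12 and below in 1. All 3 exceeded every normal library together in 10 bins (35.7%). mPTCL 3 was the opposite case, below every normal library in 24 bins and above in none. mPTCL 2 and 7 lay below in 16 and 15 bins and above in 0 and 2.

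The bin in which most lymphomas lay above all normal libraries was near the distal end. From 135 to 140 Mb, where 411 peaks lie, the levels of mPTCL 1 to 9 were 0.12, 0.04, -0.02, 0.33, 0.75, 1.02, 0.29, 0.12 and 0.62, and the normal libraries ran from -0.11 to 0.11. A total of 7 lymphomas exceeded every normal library there, including mPTCL 4 and 7, whose whole-chromosome shares were not raised. Relative to the level of the whole chromosome in the same library, the bin was higher in all 9 lymphomas, by 0.11 (mPTCL 1) to 0.44 (mPTCL 6). The 1728 peaks beyond 130 Mb were 0.594, 0.835 and 0.519 log2 units above the normal mean in mPTCL 5, 6 and 9. Over the 679 peaks of the first 45 Mb the same 3 lymphomas were at 0.01, 0.22 and -0.11. Another measure was the median over single peaks of log2(CPM + 1) minus that of the median lymphoma. On it mPTCL 6 was 0.52, 0.49 and 0.62 higher in the first 45 Mb, from 45 to 130 Mb and beyond 130 Mb. Its sizes are not directly comparable with the levels over the normal mean, which use summed shares.

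**Figure D2:**
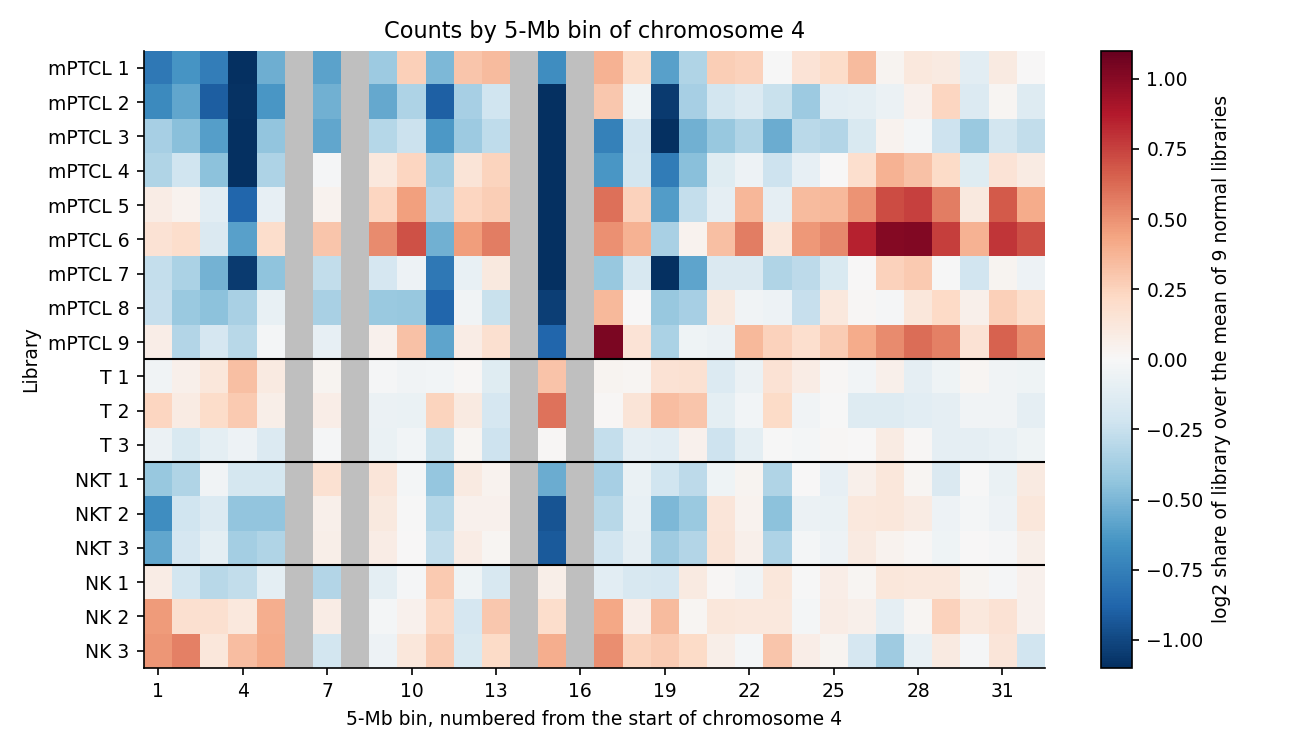
Level of each 5-Mb bin of chromosome 4 (horizontal axis, bins numbered from the start of the chromosome) in each library (vertical axis, lymphomas on top), as log2 of the bin's share of the library over the mean of the 9 normal libraries; colours run from -1.1 to 1.1 and bins with under 10 peaks are grey. Bins 27 and 28, the pair from 130 to 140 Mb, reach 1.01 and 1.02 in mPTCL 6, while mPTCL 3 is below the normal libraries in 24 bins.

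mPTCL 1 changed level part way along the chromosome. Its first 45 Mb lay below the normal mean (-0.61 log2 units, with normal libraries from -0.186 to 0.145), and the stretch from 45 to 130 Mb lay above it (0.185, with normal libraries from -0.0536 to 0.0795). Beyond 130 Mb it was within the normal range (0.0432, with normal libraries from -0.0984 to 0.0742). mPTCL 2 was low over the first 45 Mb as well (-0.67), stayed low from 45 to 130 Mb (-0.25) and was within the normal range beyond (-0.0166). All other lymphomas also stood higher from 45 to 130 Mb than before it, as in mPTCL 9 (-0.106, then 0.224) and mPTCL 4 (-0.163, then -0.0344). The borders at 45 and 130 Mb were chosen for this description. The whole-chromosome share of mPTCL 1, within the normal range, thus summed a low, a raised and a normal-range stretch, with 10 bins below and 9 above every normal library.

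Bins with few peaks were low in most lymphomas. From 15 to 20 Mb, with 30 peaks, the lymphomas ran from -1.13 (mPTCL 1) to -0.31 (mPTCL 9), against -0.44 to 0.34 in the normal libraries. From 90 to 95 Mb, with 10 peaks, they ran from -1.22 to -0.34, against -0.50 to 0.34. Over the 28 bins, Spearman's rho between the number of peaks in a bin and its level was 0.475 to 0.886 in the lymphomas, -0.793 to 0.336 in T cells, 0.698 to 0.747 in NKT cells and -0.703 to 0.200 in NK cells. These coefficients describe bins of the same libraries and carry no p. The coefficient was positive in the lymphomas and NKT libraries and negative in 4 of 6 T and NK libraries. Levels are taken over the mean of the same 9 normal libraries, which ties the normal groups to opposite signs. No contrast between normal cell types is read from them.

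**Figure D3:**
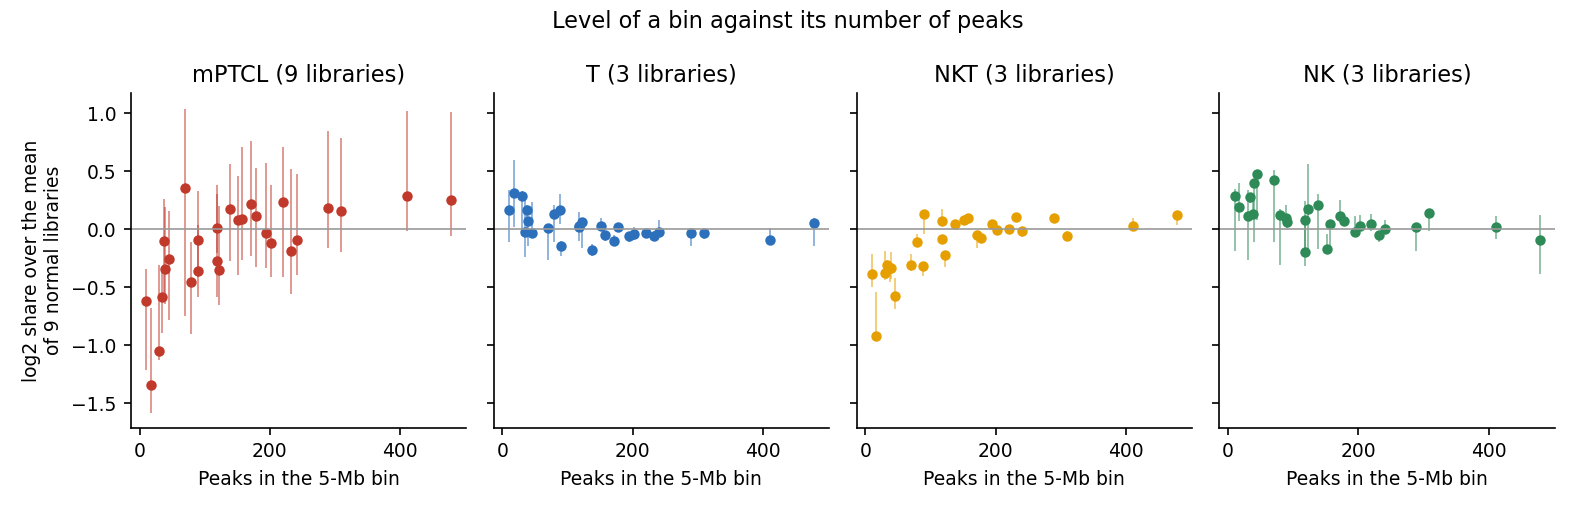
Level of each 5-Mb bin (vertical axis, log2 share over the mean of the 9 normal libraries) against the number of peaks in the bin (horizontal axis), for the 28 bins with at least 10 peaks; points are the median library of a group and vertical lines its lowest and highest library. In mPTCL and NKT libraries the bins with few peaks lie lowest.

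A pair of bins that hold a gene with an extreme value were computed again without it, a choice made after their values had been seen. Tle1 gave 3 of the 17 peaks from 70 to 75 Mb, where the lymphomas ran from -1.58 to -0.68, against -0.95 to 0.60 in the normal libraries. Without Tle1 the range was -1.23 to -0.33 in the lymphomas, against -0.70 to 0.48. From 80 to 85 Mb the lymphomas spread from -0.75 (mPTCL 3) to 1.04 (mPTCL 9). There Nfib gave 8 of 70 peaks, and without them the spread was -0.72 to 0.81.

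To find genes that departed from the chromosome, counts were summed per annotated gene and scaled within each chromosome, so that a gene is compared with the rest of its own chromosome. All 1233 genes of chromosome 4 were tested with all 20325 genes in edgeR's quasi-likelihood fit, at a Benjamini-Hochberg adjusted p below 0.05. Against NKT cells 309 genes were higher and 239 lower in mPTCL (44.4%, against 41.9% of all genes), against T cells 166 were higher and 165 lower (26.8%, against 25.4%), and against NK cells 90 were higher and 112 lower (16.4%, against 16.8%). The shares of called genes were thus near those of the genome. With genome-wide TMM scaling, which keeps what the chromosome as a whole did, the calls were 340 higher and 122 lower against NKT (37.5%, against 45.6% of all genes), 197 and 98 against T (23.9%, against 30.9%) and 109 and 72 against NK cells (14.7%, against 21.5%). This split turned with the libraries used, and without mPTCL 5, 6 and 9 it was 236 higher and 229 lower against NKT, 127 and 171 against T, and 63 and 121 against NK cells. Against NK cells it was 83 higher and 86 lower without mPTCL 5 alone, and 86 and 90 without mPTCL 6 alone. On that scale the median gene of chromosome 4 was 0.18, 0.25 and 0.22 log2 units higher in mPTCL than in NKT, T and NK cells, and the median of all genes 0.06, 0.12 and 0.13. Calls against T rest on every T library: leaving 1 out left 190 to 205 genes within chromosomes and 163 to 186 genome-wide. Without NK 3, 125 genes were called against NK cells within chromosomes, and without NK 2 or NK 3, 116 or 117 genome-wide. Genome-wide calls against NKT were 302 without NKT 1 and 305 without NKT 2.

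A gene was taken to depart when it passed in the same direction against all 3 normal groups, comparisons that share the 9 lymphomas. This held for 18 higher genes (1.46%, against 1.47% of all genes) and 54 lower genes (4.38%, against 3.62%), and with genome-wide scaling for 25 higher and 29 lower genes. By peaks, 17 were higher (0.396%, against 0.488% of all peaks) and 58 lower (1.35%, against 1.21%). These shares were near those of the genome. Without T 2 the higher genes numbered 11. The higher peaks numbered 7, 9 and 11 without T 1, T 2 and T 3, 10 without NKT 2, NK 2 or NK 3, and 11 without mPTCL 4, and the lower peaks 36 without NK 3.

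The lower genes lay mostly in the first 100 Mb. In the first 45 Mb, 29 of 226 tested genes were lower (12.8%), from 45 to 100 Mb 18 of 215 (8.37%), and beyond 100 Mb 7 of 792 (0.884%). The higher genes were 2 of 226, 2 of 215 and 14 of 792 in the same stretches. The lower genes had a median of 38.5 peaks within 1 Mb and the higher genes 117.5, against 101 for all tested genes of the chromosome. This distribution runs with the low level of sparse bins described above, and its part in these calls was not tested. Promoter peaks were 40 of the 58 lower peaks (69%, against 71.8% of the lower peaks of all chromosomes) and 4 of the 17 higher ones (23.5%, against 29.1%).

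**Figure D4:**
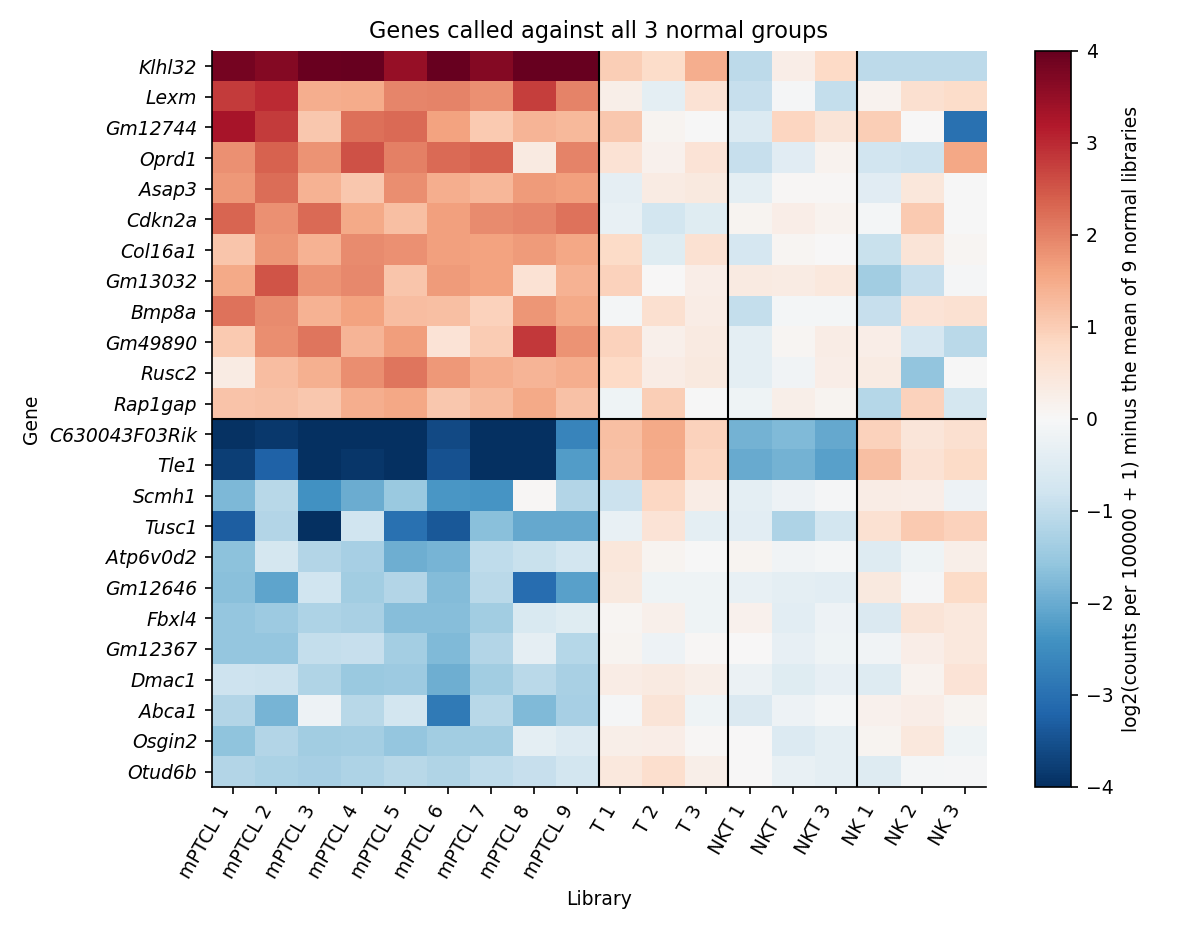
The 12 higher and 12 lower genes with the largest smallest change over the 3 comparisons (vertical axis) in each library (horizontal axis, lymphomas on the left), as log2(counts per 100000 chromosome 4 counts + 1) minus the mean of the 9 normal libraries; colours run from -4 to 4. Klhl32 is high and Tle1 low in all 9 lymphomas, while Oprd1 in mPTCL 8 and Scmh1 in mPTCL 8 stand near the normal libraries.

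Tle1, which encodes a Groucho-family corepressor that silences targets of RUNX and TCF factors, was nearly closed in the lymphomas. Summed over its 3 promoter peaks it had 0 to 34.1 counts per 100000 chromosome 4 counts (median 10.2) in mPTCL, against 369, 456 and 300 in T cells, 40.1, 43.9 and 35.8 in NKT cells and 377, 247 and 277 in NK cells. NKT cells were thus already low, and mPTCL 9, the highest lymphoma, lay just below the lowest NKT library. The log2 change was -5.06 ± 0.29 against T (SE; adjusted p = 1.9e-11, edgeR), -4.81 ± 0.32 against NK (adjusted p = 2.34e-10) and -1.92 ± 0.32 against NKT (adjusted p = 9.5e-05). At the peak that covers the promoter shown above (72200768 to 72201268), the lymphomas had 0 to 9.74, against 249 to 362 in T cells, 28.4 to 38.0 in NKT cells and 171 to 243 in NK cells. C630043F03Rik, annotated to 2 of the same peaks, takes its counts from them, and its change (-5.37 against T) is not a separate result.

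Cdkn2a was more open in every lymphoma than in any normal library. Summed over 4 peaks it had 88.5 to 197 counts per 100000 (median 144.5) in mPTCL, against 31.1, 22.3 and 26.9 in T cells, 41.2, 46.4 and 42.2 in NKT cells and 36.2, 80.1 and 37.8 in NK cells. The change was 2.45 ± 0.28 log2 units against T (adjusted p = 2.5e-06, edgeR), 1.66 ± 0.24 against NKT (adjusted p = 2.22e-05) and 1.45 ± 0.30 against NK (adjusted p = 0.00169). At the upstream start, the peak at 89294463 to 89294963 had 52.1 to 107 in the lymphomas, against 4.67, 7.44 and 10.1 in T cells, 19.5, 26.3 and 22.9 in NKT cells and 7.25, 27.9 and 10.1 in NK cells. That peak was higher by 2.98 ± 0.37 against T (adjusted p = 2.58e-06), 2.36 ± 0.41 against NK (adjusted p = 0.000531) and 1.24 ± 0.29 against NKT (adjusted p = 0.00172). The downstream start was less even: the peak at 89281975 to 89282475 had 70.4, 44.5, 77.6, 22.4, 4.35, 20.8, 58.0, 38.8 and 23.1 in mPTCL 1 to 9, against 3.36 to 15.6 in T cells, 3.79 to 6.51 in NKT cells and 7.56 to 24.4 in NK cells. mPTCL 5 lay among the normal libraries there, and mPTCL 4, 6 and 9 lay below NK 2. It passed against NKT (2.56 ± 0.61, adjusted p = 0.00198) and T (2.27 ± 0.66, adjusted p = 0.0165; not without T 2 or T 3) and not against NK cells (1.48 ± 0.68, adjusted p = 0.188). The neighbouring inhibitor gene Cdkn2b, with 1 peak, passed against no group (0.15, 0.59 and 0.62 log2 units against NKT, T and NK).

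**Figure D5:**
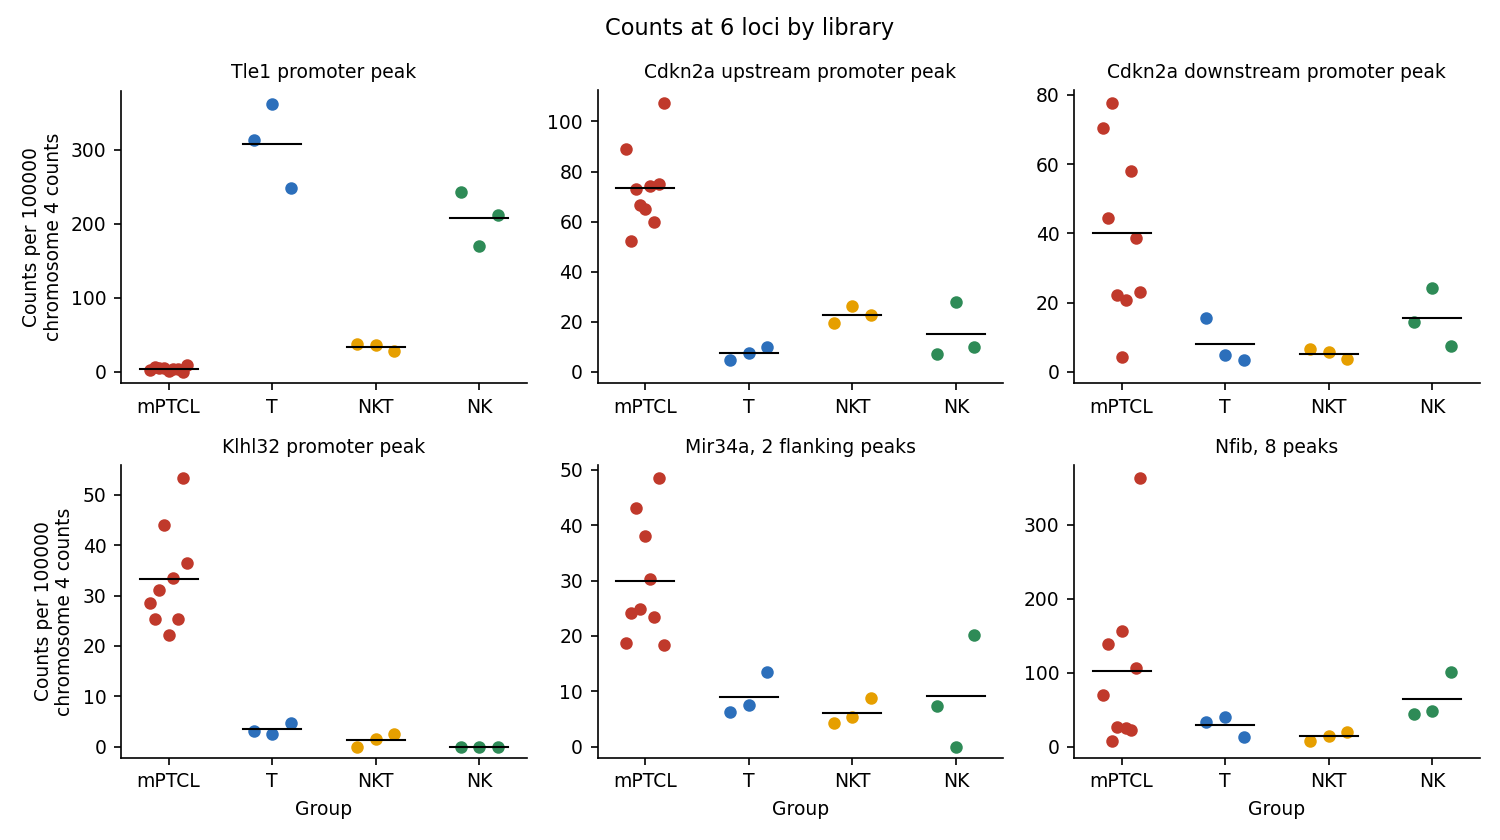
Counts per 100000 chromosome 4 counts (vertical axes) by group (horizontal axes) at 6 loci; points are libraries and black lines group means. The Tle1 promoter peak is at 9.74 or lower in all lymphomas, the upstream Cdkn2a peak is at 52.1 or higher, and the downstream Cdkn2a peak and Nfib spread widely among the lymphomas.

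Klhl32, a gene of the kelch-like family, had the largest smallest change among the higher genes. Its single promoter peak had 22.1 to 53.3 counts per 100000 (median 31.0) in mPTCL, against 3.11, 2.48 and 4.71 in T, 0, 1.51 and 2.58 in NKT and no count in any NK library. The groups did not overlap. The change was 4.09 ± 0.51 log2 units against NKT (adjusted p = 4.68e-06, edgeR) and 3.16 ± 0.53 against T (adjusted p = 0.000181). Against a floor of 3 counts over the NK group it was at least 10.7-fold higher than in NK cells (adjusted p = 0.000179). Klhl32 had 516 counts over the lymphomas, against 11 over T, 23 over NKT and 0 over NK libraries. It therefore met the minimum counts for being tested and named only through the lymphomas, and its p-values are no independent support.

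Other higher genes changed less. Lexm, named for lymphocyte expansion, had 37.5 to 111 counts per 100000 (median 54.7) in mPTCL, against 9.92 to 20.2 in T cells, 6.37 to 12.7 in NKT cells and 14.49 to 22.7 in NK cells. It was higher by 2.77 ± 0.39 against NKT, 2.05 ± 0.40 against T and 1.64 ± 0.46 against NK. Oprd1, the delta opioid receptor, was higher by 2.35, 1.68 and 1.47 against NKT, T and NK cells, with 48.5 to 81.1 in 8 lymphomas and 16.95 in mPTCL 8. Oprd1 had 6.51 to 40.3 in the normal libraries. Asap3, an activator of GTP hydrolysis by ARF proteins, was higher by 1.63, 1.46 and 1.54, and Rap1gap, which does the same for Rap1, by 1.13, 0.94 and 1.28. Col16a1, a collagen chain, and Bmp8a, a ligand of the bone morphogenetic protein family, were higher by at least 1.29 and 1.24. Rusc2 (at least 1.05) and the unnamed transcripts Gm12744, Gm13032 and Gm49890 completed the 12. The Gm12744 call against NK cells was lost in 10 of 25 alternatives, and the Gm49890 call against T cells in 6 of 25. Of the 108 calls on the 24 named genes and 12 named peaks, 9 were lost without NK 3, 8 without NK 2 or T 2, and 7 without T 3.

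The other lower genes changed less against T and NK cells than Tle1 did. Tusc1, a tumour suppressor candidate, had 2.50 to 60.1 counts per 100000 (median 24.2) in mPTCL, against 78.7 to 151 in T cells, 43.7 to 78.1 in NKT cells and 159 to 216 in NK cells. Its change was -1.44 ± 0.45 against NKT (a call lost in 6 of 26 alternatives), -2.16 ± 0.46 against T and -3.10 ± 0.47 against NK. Scmh1, a Polycomb-group protein, was lower by -1.59 ± 0.45 against NKT, -2.0 ± 0.47 against T and -1.91 ± 0.55 against NK, with mPTCL 8 at 24.2 among normal values of 12.4 to 42.2. Otud6b, a deubiquitinase, was even: 66.5 to 99.9 (median 74.2) in mPTCL, against 196 to 269 in T cells, 127 to 168 in NKT cells and 116 to 161 in NK cells. The change was -1.57 ± 0.15 against T (adjusted p = 2.97e-07, edgeR), -0.97 ± 0.15 against NKT (adjusted p = 6.04e-05) and -0.99 ± 0.18 against NK (adjusted p = 0.000637). Its groups did not overlap. Fbxl4 and Dmac1, which encode mitochondrial proteins, each had their own smallest change in the comparison with NKT cells, at -1.19 and -1.0. Atp6v0d2, a subunit of the vacuolar proton pump, changed by -1.29, -1.43 and -1.22 against NKT, T and NK cells, and Abca1, a cholesterol exporter, by -1.0, -1.31 and -1.42. Osgin2 and the transcripts Gm12646 and Gm12367 completed the lower 12.

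Among single peaks, the most extreme higher one that was no gene's promoter lay between genes at 21604089 to 21604589. It had 9.74 to 38.8 counts per 100000 (median 23.0) in mPTCL, against 0.673 to 3.72 in T cells, 1.03 to 4.34 in NKT cells and none in NK cells. That is at least 7.24-fold higher than the NK floor, and 3.22 ± 0.60 and 3.08 ± 0.67 log2 units above NKT and T cells. A promoter-class peak of Chd5, a chromatin remodeller with tumour suppressor activity, at 152340950 to 152341450 had 21.0 to 53.5 (median 30.5) in mPTCL, against 4.96 to 6.22 in T cells, 2.17 to 3.79 in NKT cells and none in NK cells. Over its 14 peaks, Chd5 was higher against T (2.01 ± 0.22, adjusted p = 1.1e-06, edgeR) and NKT (1.71 ± 0.20, adjusted p = 1.7e-06), while against NK cells it was 0.37 ± 0.20 (adjusted p = 0.216). The NK value depended on the peaks counted: it was lower in the smaller table (-0.997, adjusted p = 0.0314) and higher with promoter peaks only (2.27, adjusted p = 0.00126). Other higher peaks were intergenic, at 133897334 and 135078702, or lay in the 3' UTR of Lexm. The 6 named higher peaks, with that of Klhl32, met the minimum count for being tested only through the lymphomas. The peak at 21604089 had 358 counts over them, against 6 over T, 18 over NKT and 0 over NK libraries. The Chd5 peak had 494, against 16, 37 and 0. The call against T cells at 135078702 was lost in 10 of 23 alternatives, and those at 133897334 were lost in 5 against T and 6 against NK cells. At 133897334 the lymphomas ranged from 0 in mPTCL 8 to 39.6 in mPTCL 4. After the Tle1 promoter, the widest fall was at an intergenic peak at 53196027 to 53196527, with 0 to 9.00 (median 4.84) in mPTCL, against 37.7 to 44.6 in T cells, 19.5 to 33.9 in NKT cells and 41.8 to 55.4 in NK cells. The change there was -3.05, -3.40 and -3.39 against NKT, T and NK cells. Intronic peaks of Manea, Vps13d, Chd7 and B4galt1 followed.

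Genes of lymphocyte function were taken from lists chosen with earlier results of these data known. Over all genes of the genome, 24% were higher and 18% lower against NKT, 12.8% and 12.6% against T, and 7.84% and 8.96% against NK cells, and nothing particular to a list is read from its counts below. Of 17 measured transcription factor genes, 4 were higher and 7 lower against NKT, 1 and 4 against T, and 0 and 3 against NK cells (edgeR; 0 higher also at an unadjusted p below 0.05 and by DESeq2). The list's median log2 change was -0.26, -0.20 and -0.22, against 0.04, 0.11 and 0.09 over all genes of the chromosome. Tox had 96.7 to 285 counts per 100000 (median 203) in mPTCL, against 636, 603 and 466 in T cells, 258, 288 and 314 in NKT cells and 446, 408 and 655 in NK cells. It changed by -1.52 ± 0.20 against T (adjusted p = 1.09e-05, edgeR) and -1.44 ± 0.21 against NK (adjusted p = 7.51e-05). Against NKT the change was -0.63 ± 0.20 (adjusted p = 0.0171), a call lost without NKT 2, without NKT 3, without mPTCL 5, 6 and 9, in the smaller table and with promoter peaks only. With promoter peaks only, Tox against NK cells did not pass either (-0.64, adjusted p = 0.145). Jun had 146 to 269 in the lymphomas, against 369, 402 and 383 in T cells, 433, 310 and 301 in NKT cells and 341, 272 and 343 in NK cells, and the 9 lymphomas lay below all normal libraries. It changed by -0.85, -0.92 and -0.72 against NKT, T and NK cells (adjusted p = 0.000601, 0.000546 and 0.0105). With genome-wide scaling the NK comparison gave -0.58 (adjusted p = 0.0708), and it was also lost without NK 3. Bach2, a repressor that keeps lymphocytes in a resting state, was lower against NKT (-0.82) and T (-0.52, not with genome-wide scaling). Runx3 was higher against T cells (0.80 ± 0.15), and its differences from NKT and NK cells (0.18 and 0.18) did not pass. The difference between the comparisons was not tested.

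Of 6 genes of T-cell receptor signalling and Src-family kinases, 1 was higher and 2 lower against NKT, 1 and 1 against T, and 0 and 2 against NK cells (edgeR; 2 were higher against NK cells at an unadjusted p below 0.05, Lck and Fgr, and DESeq2 called 0). Lck had 143 to 293 counts per 100000 (median 232) in mPTCL, against 266, 295 and 281 in T cells, 467, 424 and 409 in NKT cells and 156, 219 and 101 in NK cells. Lymphomas lay below all NKT libraries (-0.95 ± 0.18, adjusted p = 0.000274, edgeR), while the differences from T (-0.24, adjusted p = 0.354) and NK cells (0.53, adjusted p = 0.0997) did not pass. Lyn, a Src-family kinase of myeloid, B and NK cells, was higher against NKT (1.45) and lower against NK cells (-1.55; -0.50 in the smaller table, adjusted p = 0.429). Pik3r3, a regulatory subunit of PI3-kinase, was lower against all 3 (-0.59, -0.66 and -0.77), and its calls against NKT and T were lost with genome-wide scaling. Both were also lost in the smaller table, the NKT call without NKT 1 and with promoter peaks only, and the T call without T 3. Its NK call was lost without NK 3. Of 7 measured TNF receptor and ligand genes, 0 were higher in each comparison (edgeR) and 2, 1 and 2 were lower against NKT, T and NK cells. Tnfrsf14 alone was higher against T cells at an unadjusted p below 0.05 and by DESeq2. Tnfrsf1b, a receptor for TNF, was lower against NKT (-0.88) and NK (-0.67), and Tnfsf8, the CD30 ligand, was lower against T (-1.87) and NK (-1.62).

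Cell cycle and replication genes were mixed. Of 21, 3 were higher and 9 lower against NKT, 1 and 6 against T, and 1 and 2 against NK cells, and the 1 gene higher in all was Cdkn2a. Of all genes in the genome, 41.9%, 25.4% and 16.8% were called in these comparisons. Ccnc, which encodes cyclin C of the Mediator kinase module, had 58.5 to 86.2 counts per 100000 in mPTCL, against 138 to 165 in T cells, 127 to 165 in NKT cells and 83.6 to 252 in NK cells. It changed by -0.97, -0.99 and -1.20 against NKT, T and NK cells, and the NK call was lost without NK 3. Rad54l, a recombination repair gene, was higher against NKT (1.38), as was E2f2 (0.72), which turned negative (-0.38) in the smaller table. The growth and PI3K-mTOR list had no higher gene and 4, 1 and 2 lower genes of 10 against NKT, T and NK cells, and of 9 apoptosis and sensing genes 1, 0 and 0 were higher and 2, 2 and 2 lower. For both lists the counts of 0 by edgeR were also 0 at an unadjusted p below 0.05 and by DESeq2.

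Of 9 p53 pathway genes, 3 were higher and 2 lower against NKT, 1 and 3 against T, and 1 and 1 against NK cells, where 41.9%, 25.4% and 16.8% of all genes were called. Against NKT the higher genes were Epha2 (2.91, with 27 counts over the NKT libraries), Trp73 (1.90) and Cdkn2a (1.66), and the lower Trp53inp1 and Plk3 (-0.50). Sesn2 (-0.31), Sfn (-0.18), Casp9 (0.09) and Mtap (0.14) were not called against NKT. Trp53inp1, a p53-induced gene of the stress response, had 61.1 to 143 counts per 100000 (median 87.6) in mPTCL, against 130 to 211.5 in the normal libraries. It changed by -0.98, -0.64 and -1.08 against NKT, T and NK cells. The T comparison did not pass with genome-wide scaling (-0.50, adjusted p = 0.0949, edgeR), without T 2 or in the smaller table. Mir34a, the gene of a miRNA that p53 is known to induce, was not on the list and was looked at after its values were seen. Its mature strand mmu-miR-34a-5p (chr4:150068473-150068494, plus strand) is printed with the seed, bases 2 to 8, in capitals.
mmu-miR-34a-5p: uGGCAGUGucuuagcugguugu

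No peak covered the miRNA itself. In the 2 flanking peaks annotated to Mir34a and to Gm37795, the lymphomas had 18.3 to 48.4 counts per 100000 (median 24.9), against 6.22, 7.44 and 13.5 in T cells, 4.34, 5.30 and 8.78 in NKT cells and 7.25, 0 and 20.2 in NK cells. Mir34a was higher by 2.11 ± 0.47 against NKT (adjusted p = 0.00128, edgeR) and 1.64 ± 0.49 against T (adjusted p = 0.0163; not without T 1 or T 2), and against NK cells the difference of 1.48 ± 0.58 did not pass (adjusted p = 0.0785).

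Chromatin regulators on the chromosome gave 2 higher and 6 lower of 13 against NKT, 2 and 2 against T, and 1 and 3 against NK cells (all genes: 41.9%, 25.4% and 16.8% called). The histone demethylase genes Kdm4a and Kdm4c were lower against all 3 groups, by -0.77, -0.59 and -0.67 and by -0.94, -1.49 and -0.77. For Kdm4a the T and NK calls were lost with genome-wide scaling (-0.44 and -0.53), and for Kdm4c the NK call was lost without NK 2, without NK 3 and without mPTCL 5, 6 and 9. Chd5 and Prdm16, a transcription factor gene of haematopoietic stem cells, were the 2 higher genes against both NKT and T (1.52 and 1.23 for Prdm16). The Prdm16 value against NKT was -0.05 in the smaller table, and its call against T was lost in the smaller table and without T 3.

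Of 23 listed markers of other cell types that lie on chromosome 4, 12 had a peak. Of these, 5 were higher and 1 lower against NKT (median 1.32 log2 units), 2 and 1 against T (0.82) and 1 and 1 against NK cells (-0.04). Of all genes, 24% were higher against NKT, 12.8% against T and 7.84% against NK cells. Higher against NKT were the B-cell factor gene Pax5 (2.08), Tek, a receptor of endothelial cells (2.55), and Ambp, a liver secretory gene (2.53). So were Padi4, a neutrophil gene (1.62), and Rhd (0.92), while Epb41 was lower (-0.8). Tek and Ambp rest on few counts, with 11 and 31 over the NKT libraries. The 6 not called against NKT were Ece1 (0.09), Cd72 (-0.15), Ermap (-0.26), Alpl (1.08), Ptafr (1.56) and Csf3r (adjusted p = 0.0537, edgeR). Against T cells, Csf3r (2.97, with 2 counts over the T libraries) and Ermap (2.09, with 12) were higher and Epb41 lower (-0.49). Against NK cells, Csf3r was lower (-2.17) and Rhd higher (1.22). The listed markers without a peak included C1qa, C1qb, C1qc, Orm1, Orm2, Cyp4a10, Cyp4a14, Tie1 and Tlr4. Ambp had 2.435 to 26.7 counts per 100000 in mPTCL and 0 to 13.9 in the normal libraries. The part of this in the other genes called higher against NKT alone was not tested.

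Genes that differed most among the lymphomas were ranked by the SD of log2(counts per 100000 + 1), over the 539 genes with at least 3 peaks and a mean of 20 counts, for which the median SD was 0.307. They were chosen for this spread, so no test is given. Nfib, a nuclear factor I gene, varied most (SD 1.70): mPTCL 1 to 9 had 69.7, 139, 8.005, 26.2, 156, 24.8, 22.0, 107 and 363 counts per 100000, against 13.5 to 39.7 in T cells, 7.59 to 19.3 in NKT cells and 43.5 to 101 in NK cells. Klf4, a Krüppel-like factor that holds T cells in quiescence, had 3.00 in mPTCL 3, 19.1 in mPTCL 2 and 35.7 in mPTCL 7, against 72.8 to 130 in the 6 other lymphomas and 58.0 to 219 in the normal libraries. Spata6 stood at 13.4 and 17.9 in mPTCL 5 and 6, against 90.1 to 157.4 in the 7 others and 130 to 196 in the normal libraries. Shb, an adapter of antigen receptor signalling, had 7.004, 16.1, 22.0 and 27.98 in mPTCL 3, 7, 6 and 2, against 91.7 to 138 in the normal libraries. Plppr1 ran from 7.004 in mPTCL 3 to 184 in mPTCL 5, against 4.34 to 259.5 in the normal libraries. Asph had 8.24 in mPTCL 1, against 54.7 to 133 in the 8 others and 64.5 to 232 in the normal libraries. mPTCL 3 was the lowest lymphoma for 5 of the 10 most variable genes (Nfib, Klf4, Shb, Plppr1 and Epb41l4b). The lowest for the others were mPTCL 4 (Gm11408), mPTCL 8 (Tle1), mPTCL 5 (Spata6), mPTCL 1 (Asph) and mPTCL 6 (Sh3gl2). These values are scaled to the chromosome 4 counts of each library. How often each lymphoma was lowest over the 539 genes was not counted, so nothing particular to mPTCL 3 is read from this.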

How the data were processed

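ATAC-seq counts per peak were deposited for 18 libraries (9 mPTCL, 3 T, 3 NKT, 3 NK). The authors' deposited tables hold raw counts per peak of 500 bp, and log2 CPM values that recomputation from the counts matched to within 5e-04. The log2 tables were not tested. The submitters' processing notes name MACS2 2.1.2, bedtools, edgeR 3.24.3 and mm10. Aligner, duplicate filter, Tn5 shift and peak merging: not given in the sources used here. Coordinates are printed as deposited, with their first base not stated. Depth was 417107 to 9097014 counts, and Wilson 95% intervals cover counting error only.

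Counts of the larger table were summed per annotated gene and tested with edgeR 4.0.16 (quasi-likelihood, R 4.3.3, 14 residual degrees of freedom, filterByExpr), with all 18 libraries in 1 fit, TMM within each chromosome and, separately, genome-wide, and Benjamini-Hochberg adjustment over all features. The SE after ± on a log2 change was derived as the size of the change over the square root of the quasi-likelihood F. It is not an output of edgeR. DESeq2 1.42.0 was an alternative. The procedure was tested on simulated data. Python 3.11.15, pandas 2.3.3, numpy 2.4.6, scipy 1.17.1 and matplotlib 3.10.9 were used for shares and figures. Counts per 100000 are of a library's chromosome 4 counts. The 5-Mb profile is given over the normal mean, and relative to the whole chromosome where said. The closest libraries of a group differed beyond sampling noise (chi-square per degree of freedom 2.243 or more).

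Named features were the list members and the 12 higher and 12 lower genes (mean count of at least 20) and 6 higher and 6 lower peaks (at least 10) with the largest smallest change over the 3 comparisons. The members and lists were chosen with earlier results of these data known. Lymphomas are numbered in accession order. Summed NKT markers were 185 to 358 CPM in mPTCL (141 to 169 in T, 298 to 348 in NKT, 177 to 326 in NK), NK markers 92.5 to 164 (30.6 to 54.6, 28.6 to 32.9, 134 to 165), B-cell markers with a peak 26.9 to 95.5 (20.8 to 32.9, 8.37 to 11.7, 52.0 to 98.1), endothelial and stromal markers 124 to 252 (149 to 196, 101 to 114, 127 to 260) and erythroid markers 25.1 to 64.9 (28.6 to 44.2, 29.3 to 46.7, 7.19 to 42.0).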

Additional observations from a re-analysis of the deposited data

Results flagged for a closer look

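The 141 items examined were the chromosome 4 share, in percent, and named genes and peaks, on the log2(counts per 100000 + 1) scale. For each, the gap of an extreme lymphoma to the nearest other was taken relative to the range of the 9. In 11 of the items, all genes, it was above Dixon's 95% limit, which chance passes in about 1 in 20 groups. All values printed are counts per 100000 chromosome 4 counts. Asph was lowest in mPTCL 1 at 8.241, and Rusc2 was lowest in the same lymphoma at 29.22. mPTCL 8 was lowest for Oprd1 at 16.95, for Tnfrsf18 at 21.8, and for Tle1 and C630043F03Rik at 0, the last pair sharing their peaks. The same library was highest for Cdca8 at 87.18, Nbn at 205.9 and Gnb1 at 62.97. mPTCL 8 was the lymphoma with the fewest counts, 670358, and the part of depth in these values was not tested. Id3 was highest in mPTCL 6 at 330.1, and Ambp was lowest in mPTCL 9 at 2.435.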

How the results depend on the processing

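No paired analysis was possible because the labels give the lymphomas no replicate numbers. In the smaller table (1694 peaks of chromosome 4), genes called within chromosomes were 199 against NKT and 138 against T, genome-wide 156 and 132, genes against all 3 groups 9 higher and 29 lower, and peaks 9 higher and 28 lower. It holds fewer peaks. With promoter peaks only, the calls were 302 against NKT and 216 against T within chromosomes, and 240 against NKT genome-wide. With genome-wide TMM, 29 genes were lower and 26 peaks higher against all 3 groups, and DESeq2 gave 28 higher peaks. The cause of the last 3 was not tested. Relative to the median chromosome, the shares of mPTCL 2, 7 and 8 turned to 0.104, 0.128 and 0.117. In the smaller table, E2f2 and Prdm16 against NKT turned to -0.38 and -0.045. Leaving out 1 library gave 372 to 581 genes against NKT, 190 to 353 against T and 125 to 243 against NK within chromosomes, 302 to 482, 163 to 313 and 116 to 200 genome-wide, 11 to 21 higher and 39 to 63 lower genes, and 7 to 25 higher and 36 to 83 lower peaks. Without mPTCL 5, 6 and 9 together, a choice made after seeing the data, none of these totals moved by over 1.5 times, but genome-wide the split of higher and lower calls became 236 and 229 against NKT, 127 and 171 against T, and 63 and 121 against NK. Of 11355 values of named features under the alternatives, 10836 stayed on the same side of the threshold, 381 lost their call, 136 gained one, and 2 called values changed sign. In all, 253 values changed sign, the others being values that had not passed. The NK libraries were the shallowest group (417107 to 596601 counts), and the part of depth in their fewer calls was not tested.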
